A study of Mus musculus with 6 samples.

Results

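Ligands and receptors of the epidermal growth factor receptor (EGFR) family were examined in mouse skin. The genes were taken by name, as rows of the deposited ratio table whose probe carries exactly 1 gene symbol, from a list of 10: the ligand genes Epgn, Ereg, Areg, Btc, Hbegf, Tgfa and Egf and the receptor genes Egfr, Erbb2 and Erbb3. Of these, 9 were measured, by 11 probes, among 18617 named genes; Areg is not analysed here. Skin RNA of 3 wild-type mice (WT) was compared with that of 3 mice carrying the LynDN transgene, which the series title spells LynDeltaN and which derives from the Src family tyrosine kinase Lyn. The sources used here do not give strain, sex, age, body site or the promoter that drives the transgene, and name no treatment. Each LynDN mouse was hybridised with 1 WT mouse on a pair of 2-colour arrays with the dyes exchanged, so that 6 arrays made 3 mouse pairs: LynDN-1 with WT-1 (pair 1), LynDN-2 with WT-3 (pair 2) and LynDN-3 with WT-2 (pair 3).

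The ErbB receptors are tyrosine kinases of the cell surface that pair up when a ligand binds. Their ligands are made as membrane-anchored precursors that proteases cut free. ErbB3 has little kinase activity of its own and ErbB2 binds none of the known ligands, so both signal through a partner receptor. In skin the family is known for control of keratinocyte growth and migration, of hair follicle cycling and of the response to wounds.

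The table holds log ratios between the genotypes and no level, so neither the abundance of a gene nor the defining markers of skin could be examined. Which genotype is the numerator is not stated. Positive ratios below lie on the side of the alarmin genes S100a9 and S100a8, which had the values 5.54 ± 0.16 and 4.61 ± 0.12 (SD, n = 3). Mice with this transgene are known for psoriasis-like skin inflammation, and on that basis the LynDN mouse is the likely numerator; were it the WT mouse, every sign would turn. Ratios are read as base 2. A pair value is the mean of both arrays of a dye swap, and tests were run on the 3 pair values with limma across 22879 rows, adjusted by Benjamini-Hochberg at a threshold of 0.05.

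The 4 ligand genes Epgn, Ereg, Hbegf and Btc stood farthest from 0, the first 3 on the positive side and Btc on the negative side. Mean ratios corresponded to 3.19-fold for Epgn, 2.42-fold for Ereg, 2.25-fold for Hbegf and 1.79-fold for Btc. Tgfa had a smaller positive ratio, and Egf and the receptor genes Egfr, Erbb2 and Erbb3 lay close to 0. On the pair values 0 of the 9 genes passed the limma test, where 0.0175% of all rows passed positive and 0% negative. At an unadjusted p under 0.05 there were 4 positive genes (Epgn, Ereg, Hbegf and Tgfa) and 1 negative gene (Btc), against 5.92% and 6.41% of all rows. An alternative fit of the 6 arrays, with a dye term and a random block for each mouse pair, called Epgn, Ereg and Hbegf positive and Btc negative, where 0.603% of all rows passed positive and 0.459% negative. The block fit gives all rows a single correlation between the arrays of a pair (0.151), and for these 4 genes the arrays of a pair lay far closer together than the pairs did, so its p-values are too small for them.

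**Figure D1:**
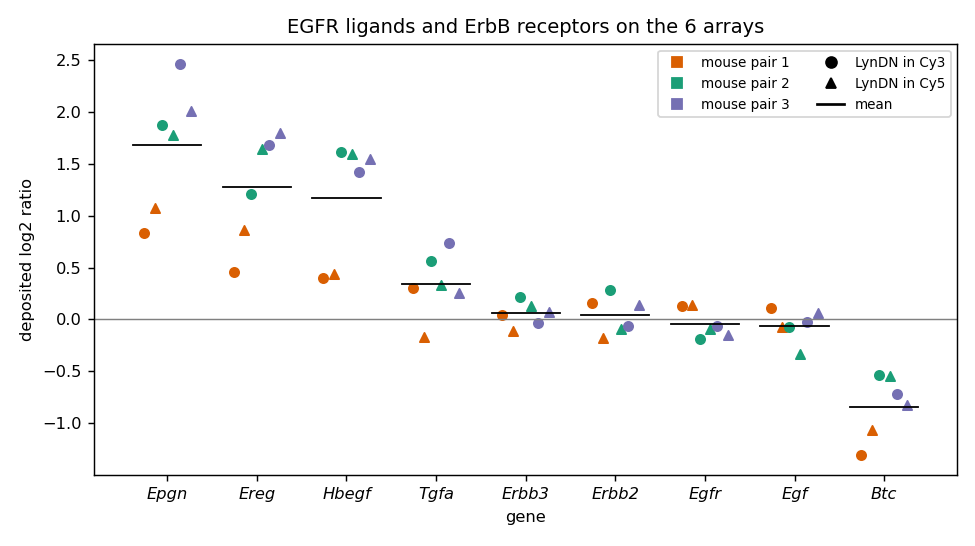
Deposited log2 ratio (vertical axis) of the 9 genes on each of the 6 arrays; colour marks the mouse pair, circles and triangles the dye of the LynDN mouse, and black lines the mean. Epgn, Ereg and Hbegf are above 0 and Btc is below 0 on every array, and pair 1 gives the lowest value of each of the 4.

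Epgn encodes epigen, a low-affinity EGFR ligand known to keep receptors active for long. With the array that had LynDN in Cy3 named first, pair 1 gave 0.83 and 1.08, pair 2 gave 1.88 and 1.78, and pair 3 gave 2.47 and 2.01. All 6 arrays were positive, and both arrays of pair 1 were below the other 4. The mean was 1.68 ± 0.66 (SD, n = 3), with a 95% limma interval from 1.04 to 2.31, adjusted p = 0.237 on the pair values and 0.0218 with the block. Of the 22879 rows, 46 had a larger mean. The pair values 0.96, 1.83 and 2.24 correspond to 1.94-fold, 3.56-fold and 4.72-fold.

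Ereg encodes epiregulin, a ligand of EGFR and ErbB4 that keratinocytes use as an autocrine growth factor. Pair 1 gave 0.46 and 0.86, pair 2 gave 1.21 and 1.65, and pair 3 gave 1.68 and 1.80. The ratio was lower with LynDN in Cy3 in each pair, by 0.12 to 0.44, and pair 1 again lay below the others. The mean was 1.28 ± 0.56 (SD, n = 3), with an interval from 0.74 to 1.82 and limma adjusted p = 0.247 on the pair values and 0.0264 with the block.

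Hbegf encodes heparin-binding EGF-like growth factor, known from the migration of keratinocytes in wounds. The values were 0.40 and 0.44 for pair 1, 1.62 and 1.60 for pair 2, and 1.42 and 1.55 for pair 3. The arrays of a dye swap differed by at most 0.12, whereas the pair values ranged over 1.2, which left pair 1 clearly apart. The mean was 1.17 ± 0.66 (SD, n = 3), with an interval from 0.54 to 1.80 and limma adjusted p = 0.278 on the pair values and 0.0493 with the block.

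Btc encodes betacellulin, a ligand of EGFR and ErbB4. The values were -1.31 and -1.07 for pair 1, -0.54 and -0.55 for pair 2, and -0.72 and -0.83 for pair 3. All 6 arrays were negative, and pair 1 held the largest difference here, the opposite of the 3 positive ligands. The mean was -0.84 ± 0.33 (SD, n = 3), with an interval from -1.17 to -0.50 and limma adjusted p = 0.237 on the pair values and 0.0255 with the block. Only 27 of the 22879 rows had a lower mean.

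Tgfa encodes transforming growth factor alpha, an EGFR ligand made by keratinocytes themselves. The values were 0.30 and -0.17 for pair 1, 0.56 and 0.33 for pair 2, and 0.74 and 0.26 for pair 3. The ratio was higher with LynDN in Cy3 in all pairs, by 0.48, 0.23 and 0.48, so this gene varied as much with the dye as between pairs. The mean was 0.34 ± 0.24 (SD, n = 3; interval from 0.08 to 0.59), with limma adjusted p = 0.328 on the pair values and 0.121 with the block. In the block fit the dye term of Tgfa was 0.39 (unadjusted p = 0.0303; limma adjusted p = 0.178). It was the only one of the 9 genes with an unadjusted p under 0.05 for the dye, which 22% of all rows reached.

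**Figure D2:**
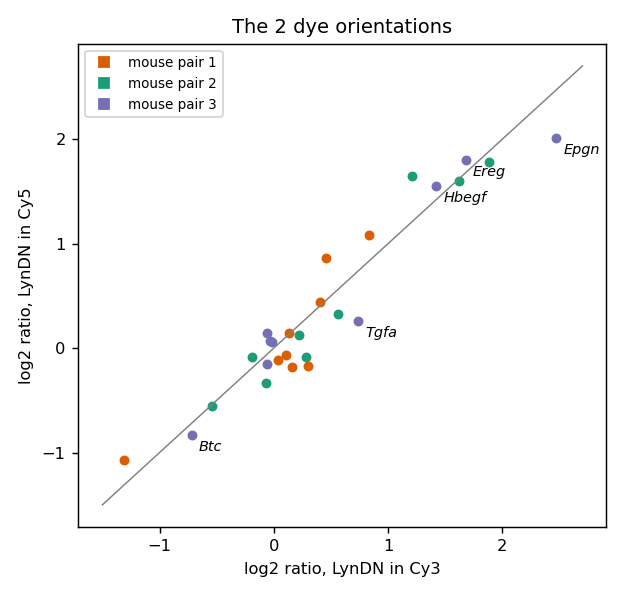
Log2 ratio with LynDN in Cy5 (vertical) against LynDN in Cy3 (horizontal) for the 9 genes, 1 point per gene and mouse pair, with the line of equality; names stand beside the pair 3 points of 5 ligands. Epgn, Ereg, Hbegf and Btc keep their side of 0 in both orientations, and all 3 Tgfa points lie below the line.

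Egf, the ligand for which the family is named, had 0.11 and -0.07 for pair 1, -0.07 and -0.33 for pair 2, and -0.02 and 0.06 for pair 3, with a mean of -0.06 ± 0.13 (SD, n = 3). Its arrays lay on both sides of 0, and the interval from -0.23 to 0.12 leaves room for a change of that size to either side.

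The receptor genes had means of -0.04 ± 0.15 for Egfr, 0.04 ± 0.05 for Erbb2 and 0.06 ± 0.11 for Erbb3 (SD, n = 3). None had one sign on all 6 arrays, and limma adjusted p lay between 0.747 and 0.861. The intervals were -0.23 to 0.15 for Egfr, -0.09 to 0.18 for Erbb2 and -0.10 to 0.22 for Erbb3, so that receptor ratios of the size seen for Epgn, Ereg or Hbegf lie outside them. Egfr, the receptor that all 7 listed ligands can bind, had 0.14 in pair 1 against -0.14 and -0.11 in pairs 2 and 3. Pair 1 was thus the highest of the 3 for Egfr, within a range of 0.28, and the lowest for Epgn, Ereg and Hbegf. Its 2 probes gave 0.14, -0.27 and -0.19 and 0.13, -0.02 and -0.03 in pairs 1, 2 and 3, so the negative values came mainly from 1 probe. The 2 Erbb3 probes had opposite signs in pair 1 (0.06 and -0.12) and in pair 3 (-0.09 and 0.13).

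**Figure D3:**
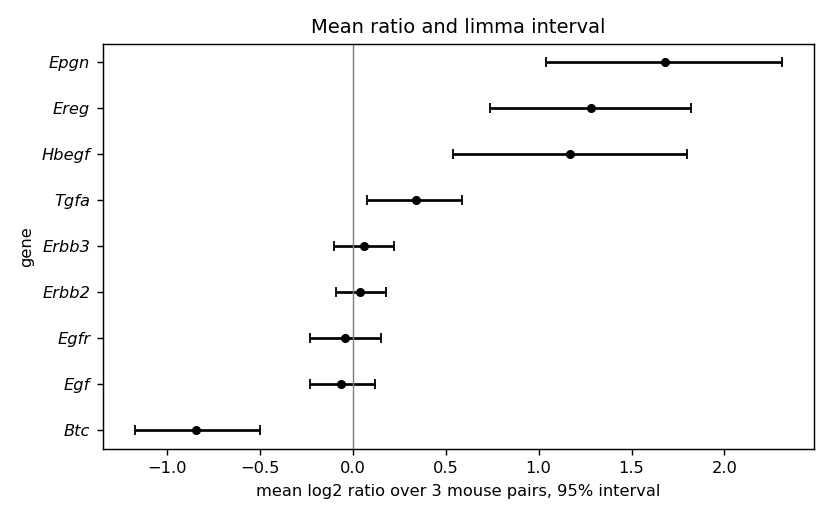
Mean log2 ratio over 3 mouse pairs (horizontal axis, points) with its 95% limma interval, not adjusted for the number of rows, for each of the 9 genes. The intervals of Epgn, Ereg, Hbegf, Tgfa and Btc lie on one side of 0, and those of Egf, Egfr, Erbb2 and Erbb3 include 0.

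By mean ratio the order was Epgn, Ereg, Hbegf, Tgfa, Erbb3, Erbb2, Egfr, Egf and Btc. Epgn exceeded Ereg in each pair, by 0.40 ± 0.10 (SD, n = 3). Ereg and Hbegf differed by 0.10 ± 0.25, less than the spread, and changed places in pair 2. Hbegf exceeded Tgfa in each pair, by 0.83 ± 0.43, and Tgfa exceeded Erbb3 in each pair, by 0.28 ± 0.19. The steps from Erbb3 to Egf were smaller than their SDs, while Egf lay above Btc in each pair, by 0.78 ± 0.43. These are differences between ratios and say nothing of which ligand is more abundant.

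One sign on all 6 arrays was shown by 3 positive genes (Epgn, Ereg and Hbegf) and 1 negative gene (Btc), against 3.72% and 4.31% of all rows. Mean ratios of at least 2-fold were reached by the same 3 positive genes and by 0 negative ones, against 0.52% and 0.0787%. For the ligands called only with the block, not on the pair values, the largest gap within a dye swap was smaller than the range over pairs. It was 0.46 against 1.28 for Epgn, 0.44 against 1.08 for Ereg, 0.12 against 1.2 for Hbegf and 0.24 against 0.65 for Btc.

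With pair 1 kept, the block fit called 4 of these genes and quantile normalization called 2. The share of all rows called after quantile normalization is not given here, so that count is not read as a result about these genes. The most calls came from the fit on pairs 2 and 3 alone, which leaves out pair 1. Without it, limma called 5 of the 9: Epgn (2.04, adjusted p = 0.00243), Ereg (1.58, adjusted p = 0.00290), Hbegf (1.55, adjusted p = 0.00126) and Tgfa (0.47, adjusted p = 0.0250) as positive and Btc (-0.66, adjusted p = 0.0209) as negative. All rows gained calls as well, with 3.22% positive and 1.67% negative. Without pair 2 or pair 3, 0 of the 9 genes passed in limma. The shares of all rows in those fits are not given here either, so that count too is not read as a result. Over the 13 alternatives the limma adjusted p ranged from 0.00243 to 0.890 for Epgn, 0.00290 to 0.904 for Ereg, 0.00126 to 0.904 for Hbegf, 0.0209 to 0.904 for Btc and 0.0250 to 0.904 for Tgfa, highest without pair 3. Pair 1 also stood apart in sex-linked genes. The Y-linked Eif2s3y and Kdm5d had 3.5 and 1.24 in pair 1, against values from -0.05 to 0.13 in the other pairs. Xist, expressed from the inactive X chromosome, had -1.06 against -0.09 and -0.14. Such ratios mark mice of unlike sex, so in pair 1 sex and genotype cannot be told apart. The part of sex in the pair 1 values was not tested.

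Epgn, Ereg, Areg and Btc lie side by side on mouse chromosome 5 in the RefSeq annotation of GRCm38.p6, with no other protein-coding gene among them. The cluster is flanked by Mthfd2l, and beyond it by CXC chemokine genes, on the Epgn side, and by Parm1 on the Btc side. Ratios changed sign within the cluster, from Epgn and Ereg to Btc. Mthfd2l, a mitochondrial folate enzyme gene next to Epgn, had -0.03 ± 0.06, and Parm1, next to Btc, had -0.23 ± 0.07 (SD, n = 3), negative on all 6 arrays (limma adjusted p = 0.282). Of the chemokine genes, the neutrophil attractants Cxcl5, Cxcl1 and Cxcl2 had 1.25 ± 1.0, 0.72 ± 0.38 and 0.66 ± 0.58, the platelet chemokines Pf4 and Ppbp had 0.47 ± 0.49 and 0.36 ± 0.24, and Cxcl15 had 0.05 ± 0.06. None of these neighbours passed on the pair values, and Cxcl1 passed with the block (limma adjusted p = 0.0495). Cxcl5 was at 0.11 in pair 1 against 1.67 and 1.98, a wider gap than that of Epgn.

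**Figure D4:**
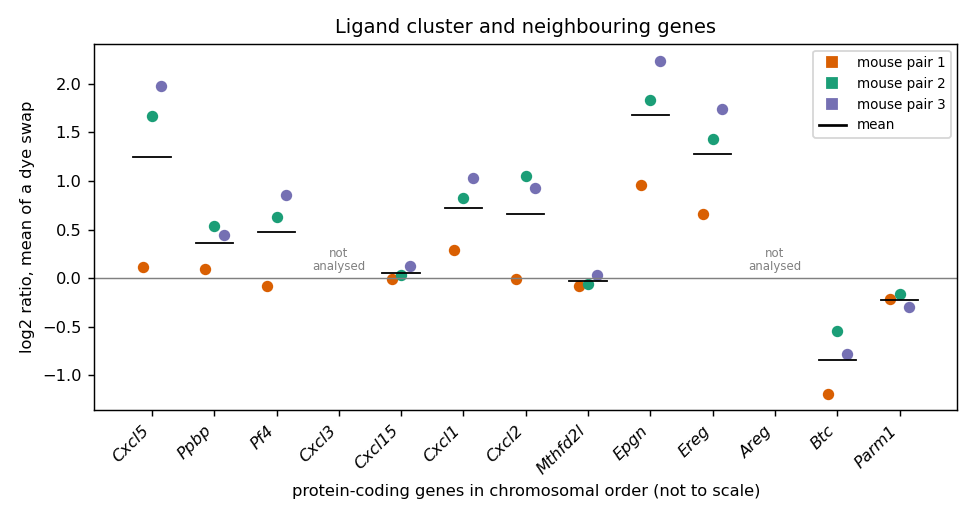
Log2 ratio per mouse pair (points, mean of a dye swap) and the mean over pairs (black lines) for protein-coding genes in their order on chromosome 5, from Cxcl5 to Parm1, not to scale. Epgn and Ereg are positive and Btc and Parm1 negative in all 3 pairs, and Cxcl3 and Areg are not analysed here.

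The start regions of Epgn and Btc are shown because these neighbours in the cluster had ratios of opposite sign. Each line gives the 250 bases before the transcription start from RefSeq, build GRCm38.p6, 5′ to 3′ on the strand of the gene, with a TATAAA match on either strand in capitals. Epgn lies at chr5:91027267-91027516 on the plus strand and Btc at chr5:91402995-91403244 on the minus strand.
Epgn: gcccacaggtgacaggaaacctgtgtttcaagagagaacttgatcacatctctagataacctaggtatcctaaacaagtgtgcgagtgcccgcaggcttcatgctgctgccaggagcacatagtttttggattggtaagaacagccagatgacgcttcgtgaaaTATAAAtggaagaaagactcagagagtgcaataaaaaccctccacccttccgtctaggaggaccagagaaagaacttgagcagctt
Btc: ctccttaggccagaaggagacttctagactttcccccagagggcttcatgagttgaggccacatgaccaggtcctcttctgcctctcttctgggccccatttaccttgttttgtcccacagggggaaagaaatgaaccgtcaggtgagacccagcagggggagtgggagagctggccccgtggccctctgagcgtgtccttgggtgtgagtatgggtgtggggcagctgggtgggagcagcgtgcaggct

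The Epgn window held 1 TATAAA match, beginning 86 bases before the start, and the Btc window held 0; 12.4% of 32851 promoter windows of this length held one. GC content was 46.8% for Epgn and 59.6% for Btc. Neither held the AP-1 core TGANTCA, the binding motif of Fos and Jun dimers, which 6.75% of windows held. Areg had a TATAAA match 31 bases before its start, and the windows of Tgfa, Egfr, Erbb2 and Egf (2 starts) held neither motif. Ereg, Hbegf and Erbb3 were not searched.

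Genes with the most similar ratios were sought by the root mean square difference over the 6 arrays, for the 4 genes whose mean reached 1.5-fold. Nearest to Epgn were Tnfaip8l1, Nfkbiz, a regulator of NF-kB target genes, and Tfpi2, with differences of 0.28, 0.32 and 0.33. Nearest to Ereg were Tmigd1, the epidermal fatty acid binding protein gene Fabp5 and Pcdhb5, at 0.22, 0.24 and 0.27. Nearest to Hbegf were the aldo-keto reductase gene Akr1b8, the serpin gene Serpinb11 and the mitochondrial cyclophilin gene Ppif, at 0.10, 0.11 and 0.13. Nearest to Btc were Acsl6, a fatty acid activating enzyme gene, 4632413I24Rik and the esterase gene Ces2f, at 0.19, 0.22 and 0.25. The search itself picks genes with the same pattern over the pairs. Those near Hbegf had 0.27, 0.46 and 0.32 in pair 1 against 1.47 to 1.54 in the other pairs.

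Other genes of the pathway were taken from lists for further ErbB family genes, ligand shedding, feedback, core signalling and response genes, 87 distinct measured genes of 97 listed. On the pair values 0 passed in limma. At an unadjusted p under 0.05, 16 were positive (18.4%) and 2 negative (2.30%), against 5.92% and 6.41% of all rows. With the block Ier3 and Spry4 passed positive (2.30%) and Sphk1 negative (1.15%), against 0.603% and 0.459% of all rows. The median ratio over all 87 was 0.03, against -0.01 over all rows.

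Of the remaining family genes 4 of 5 were measured, the receptor gene Erbb4 and the neuregulin genes Nrg1, Nrg3 and Nrg4, which encode ligands of ErbB3 and ErbB4. Their means lay between -0.10 and 0.14, and 0 had an unadjusted p under 0.05. Nrg1 had the highest, 0.14 ± 0.09 (SD, n = 3; limma adjusted p = 0.419).

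All 11 genes of ligand shedding were measured, with a median of 0.08. At an unadjusted p under 0.05, 4 were positive (36.4%, against 5.92% of all rows) and 0 negative (against 6.41%). Adam17, the main protease that frees EGFR ligands, had 0.15 ± 0.08, Rhbdf2, which brings Adam17 to the cell surface, had 0.16 ± 0.09, and Furin, which activates the protease, had 0.18 ± 0.14 (SD, n = 3). Limma adjusted p for these 3 lay between 0.384 and 0.393. The metalloprotease gene Adam8, which leukocytes also express, had 1.03 ± 0.85, with 0.06, 1.54 and 1.5 in pairs 1, 2 and 3 (limma adjusted p = 0.339).

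The 20 measured feedback genes had a median of 0.03. An unadjusted p under 0.05 was reached by 4 positive genes (20%, against 5.92% of all rows) and 1 negative gene (5%, near the 6.41% of all rows). Spry4, a Sprouty inhibitor of receptor signalling to ERK, had 0.39, 0.84 and 0.82 by pair and a mean of 0.68 ± 0.25 (SD, n = 3; limma adjusted p = 0.237 on the pair values and 0.0416 with the block). The arrays of pair 3 differed by 0.75 for this gene. Dusp6, a phosphatase that inactivates ERK, had 0.30, 0.09 and 0.84 and a mean of 0.41 ± 0.39. The tyrosine phosphatase gene Ptpn1 and Socs5, an inhibitor of EGFR and cytokine signalling, had 0.28 ± 0.12 and 0.24 ± 0.12. Both were higher with LynDN in Cy3 in each pair, Ptpn1 by 0.22 to 0.36 and Socs5 by 0.34 to 0.49. With LynDN in Cy5, Socs5 had -0.08, 0.16 and 0.03 in pairs 1, 2 and 3.

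Core signalling genes, 28 of 34 measured, had a median of 0.01. With an unadjusted p under 0.05, 2 were positive (7.14%, near the 5.92% of all rows) and 0 negative (against 6.41%). Stat3, a transcription factor downstream of EGFR and of cytokine receptors, had 0.14, 0.97 and 0.91 by pair and a mean of 0.67 ± 0.46 (SD, n = 3; limma adjusted p = 0.303). Stat5a had 0.14 ± 0.06, the phosphatase gene Ptpn11 had -0.13 ± 0.06 and the PI3-kinase subunit gene Pik3r1 had -0.17 ± 0.14, each with limma adjusted p between 0.393 and 0.434. The means of the 28 genes lay between -0.17 and 0.67, with Stat3 the highest.

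Response genes, known to follow growth factor signals, had a median of 0.10 over 24 of 25 listed genes. At an unadjusted p under 0.05, 6 were positive (25%, against 5.92% of all rows) and 1 negative (4.17%, against 6.41%). Ier3, an immediate early gene, had 0.48, 1.15 and 1.69 by pair and a mean of 1.11 ± 0.61 (SD, n = 3; limma adjusted p = 0.278 on the pair values and 0.0492 with the block). Its ratio was lower with LynDN in Cy3 in each pair, by 0.54 to 0.84. Fosl1, a Fos-type subunit of AP-1, had 0.46 ± 0.33, and the ETS factor gene Etv4 had 0.25 ± 0.03. Sphk1, the sphingosine kinase gene, had -0.44 ± 0.15 (limma adjusted p = 0.247 on the pair values and 0.0347 with the block) and was negative on all 6 arrays.

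**Figure D5:**
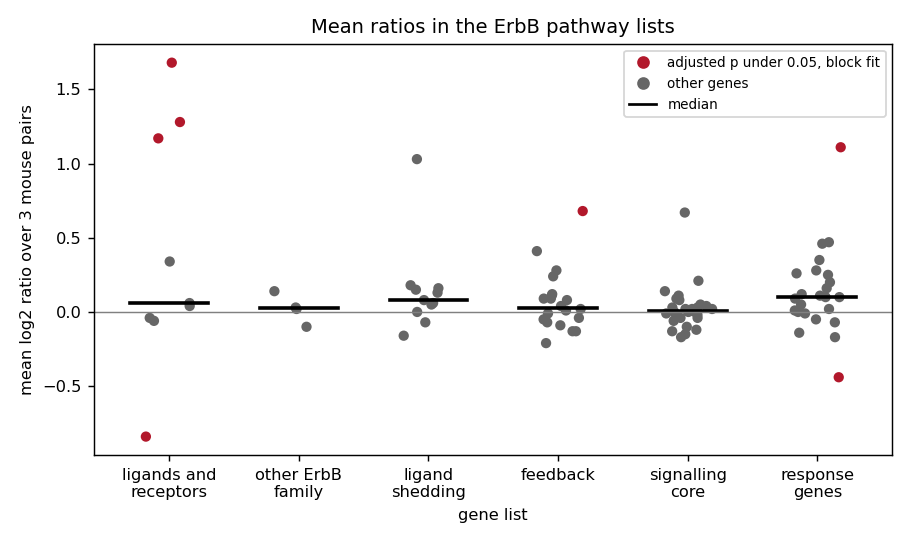
Mean log2 ratio over 3 mouse pairs (vertical axis) of each measured gene, for the ligands and receptors and for 5 pathway lists; black lines are medians and red points passed the block fit at an adjusted p under 0.05. List medians lie between 0.01 and 0.10, and the red points are Epgn, Ereg, Hbegf, Btc, Spry4, Ier3 and Sphk1.

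In bulk skin, fewer cells of a type and less RNA per cell cannot be told apart, and markers of several cell types had ratios away from 0 beside these genes. Markers of stressed keratinocytes (6 of 7 measured) were all positive on every array, with medians of 3.08, 4.31 and 4.53 in pairs 1, 2 and 3. On the pair values 3 of the 6 passed the limma test, where 0.0175% of all rows passed positive. These were Krt16 and the alarmin genes S100a8 and S100a9, whose side defines the positive sign here. Basal keratinocyte markers (8 of 8) had medians of 0.15, 0.52 and 0.39, and suprabasal markers (7 of 8) had -0.32, -0.69 and -1.23. The suprabasal list was split, with 5 negative means and 2 positive ones, Krtdap (0.63 ± 0.71) and Calm4 (0.11 ± 0.30). Neutrophil markers (7 of 8, among them S100a8 and S100a9, which keratinocytes also make) had 0.30, 1.36 and 1.07, and macrophage markers (6 of 7) had -0.13, 0.43 and 0.68. Like Epgn, Ereg and Hbegf, the medians of these positive lists were lowest in pair 1. This did not hold for every marker, with S100a9, Mpo, Itgam and Dst among the exceptions. Hair follicle markers (13 of 14) had medians of 0.10, -0.65 and -0.64, and in pair 1 they ran from -1.0 for Krt15 to 0.58 for Tchh. Btc was most negative in pair 1. The part of these cell types in the ligand ratios was not tested. Medians over all pairs of the other lists were -0.33 for skeletal muscle, -0.32 for melanocytes, -0.26 for adipocytes and -0.11 for fibroblasts. They were -0.05 for T cells, -0.02 for endothelium, 0.15 for sebocytes and 0.30 for mast cells. In pair 1 the median lay on the other side of 0 for skeletal muscle (0.02), melanocytes (0.30), adipocytes (0.09) and mast cells (-0.11).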

How the data were processed

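Skin RNA of 3 WT and 3 LynDN mice was extracted with Qiagen and labelled with Ambion reagents, per the labels' protocols, and compared on 6 arrays in 2 colours. For every probe of each array the authors deposited a log ratio, with base and numerator not stated. The deposited values were read as log2 ratios, an assumption (range -6.34 to 6.16). The sources used here do not give scanner, background correction or normalization. Column means were 0 and medians lay from -0.017 to 0.001. From probe 21000 on, where Epgn, Erbb2 and 1 Egfr probe lie, 99.9% of rows carry at most 3 digits. Depth does not apply to arrays, and their number limits the precision.

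Of 25344 probes, 21082 had 1 symbol in the platform annotation, 30 several and 4232 none. Probes of a symbol were averaged per array, then the arrays of a dye swap per mouse pair. The labels name the same mice on both arrays, which is where the pairing comes from. Within dye swaps the ratios of all rows correlated at Pearson r = 0.463 and 0.462 in pairs 2 and 3 and 0.024 in pair 1, and arrays of one orientation at 0.352 to 0.643, so a dye effect remained in the deposited values. Tests of the 3 pair values against 0 used lmFit and eBayes of limma 3.58.1 (R 4.3.3), with Benjamini-Hochberg adjustment over 22879 rows. Scripts were tested on simulated data. Alternatives were the block fit with a dye term, quantile normalization, median centring, scaling by the median absolute deviation, single probes, no or robust moderation, single orientations, and leaving out a pair or the 1 array whose label carries another date. Labels number the mice of each genotype separately.

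The genes and lists were chosen with earlier results of these data known. Named genes were all measured ligands and receptors and up to 4 genes of each pathway list by smallest p. The 3 genes nearest in ratio to each gene of at least 1.5-fold were named too. Chromosomal neighbours, single cell type markers, Eif2s3y, Kdm5d and Xist were named after their values were seen. Figures were drawn with matplotlib 3.10.9.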

Additional observations from a re-analysis of the deposited data

How the results depend on the processing

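Of the 9 genes, 0 passed on the pair values in limma, 4 with the pair as a replicate block and 2 with quantile normalization (Epgn, adjusted p = 0.0167, and Ereg, 0.0260). Leaving out a pair gave 0 to 5. Of the pathway lists 0 passed, 3 with the replicate block, 1 with quantile normalization and 0 to 7 with a pair left out. At an unadjusted p under 0.05 the 5 genes fell to 2 without variance moderation and the 18 pathway genes to 8, which ranged from 6 to 28 with a pair left out. Without pair 1 that count was 28, and it was 7 without pair 2 and 6 without pair 3. Of all rows, 0.603% passed the adjusted threshold positive and 0.459% negative with the block. Without pair 1 these shares were 3.22% and 1.67%. Shares of all rows under the other alternatives are not given here, so those counts are not read as a result about these genes.

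Epgn, Ereg, Hbegf, Tgfa and Btc kept their sign in all 13 alternatives, with ranges of 1.39 to 2.04, 1.04 to 1.58, 0.95 to 1.55, 0.14 to 0.54 and -0.98 to -0.66. Genes near 0 changed sign. With a pair left out, Egf ranged from -0.092 to 0.018, Egfr from -0.124 to 0.014 and Erbb3 from -0.004 to 0.1, with the sign turned without pair 2. Egf was 0.004 on arrays with LynDN in Cy3. Egfr was 0.028 on 1 of its probes. Erbb2 was -0.044 on arrays with LynDN in Cy5. The cause was not tested. With ratios alone, signal over background could not be examined.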

Other observations

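Ratios of the ligands followed no single order over the mouse pairs. From pair 1 to the lower of the other pairs, the size of the difference went from 1.94-fold to 3.56-fold for Epgn, from 1.58-fold to 2.69-fold for Ereg and from 1.34-fold to 2.80-fold for Hbegf, whereas Btc went from 2.28-fold to 1.46-fold. The alarmin genes S100a9 and S100a8 did not share this gap, with 5.65 and 4.47 in pair 1 against 5.35 to 5.60 and 4.68 in the others. Their ratios did differ with the dye, with Cy3 minus Cy5 terms of -1.06 and -0.98 in the block fit (limma adjusted p = 0.0272 and 0.0151), while 0 of the 9 ligand and receptor genes passed for the dye, with 1 at an unadjusted p under 0.05. Over all rows 2.56% passed for the dye and 22% had an unadjusted p under 0.05 for it. The counts of 0 and 1 among 9 genes are therefore not read as a trait of these genes.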
